A study of Mus musculus with 4 samples.

Results

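The NMDA and AMPA receptor genes of the mouse were examined through the methylation of their CpG sites. The 10 genes were the NMDA receptor genes Grin1, Grin2a, Grin2b, Grin2c, Grin2d and Grin3a and the AMPA receptor genes Gria1, Gria2, Gria3 and Gria4. In the hippocampus, a CpG site belonged to a gene if it lay between 1000 bases before the RefSeq start of the gene and its end (mm10, GRCm38.p6) and had at least 5 reads in both libraries, which held for 2008 of 2226271 CpG sites, 1573 in the 6 NMDA and 435 in the 4 AMPA receptor genes. In the frontal cortex, a site belonged to a gene that the deposited table named as its promoter, exon or intron, which held for 4 of 9731 listed sites. That table lists called sites alone and gives no read counts, so the depth behind the frontal cortex levels is unknown.

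Pregnant wild type CD-1 mice received either estriol (E3, 50 µl at 0.46 mg/ml in DMSO) or DMSO alone (vehicle control, CT) from a mini-osmotic pump for 7 days from day 9 of gestation, and the frontal cortex and hippocampus came from their female offspring, aged 8 weeks per the labels. Genomic DNA was cut with TaqαI and MspI, treated with bisulfite and sequenced, so that CpGs near the cutting sites of these enzymes were the ones read. There was 1 library per tissue and condition, and the number of mice behind a library is not given in the sources used here, so the tests compare 2 libraries and the difference between mice cannot be told apart from that between E3 and CT. Each library held all cells of its tissue, hence a change within cells and a change in the make-up of cell types cannot be told apart, and the tissue labels were not checked against marker genes.

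Glutamate is the main excitatory transmitter of the brain. AMPA receptors, assembled from the subunits GluA1 to GluA4 that Gria1 to Gria4 encode, carry the fast current at excitatory synapses. NMDA receptors need GluN1, the product of Grin1, together with GluN2 subunits from Grin2a to Grin2d or GluN3 subunits. They open when glutamate and glycine are bound and the membrane is depolarised, pass calcium, and are central to synaptic plasticity in the hippocampus and cortex. CpG islands at gene starts are usually unmethylated, whereas CpGs within the body of a transcribed gene are usually methylated.

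At most CpG sites of the receptor genes the hippocampus libraries did not differ by the test used. A site was called when the levels differed by at least 10 percentage points with an unadjusted p under 0.05 in a 2-sided Fisher's exact test of methylated and unmethylated reads. Of the 2008 sites, 126 were called higher and 106 lower in E3, or 11.6%, against 11.0% of all measured CpG sites (6.18% higher and 4.83% lower). The share in the receptor genes was thus near that of the whole table. With p-values adjusted over all CpG sites by the Benjamini-Hochberg method, 40 sites were called higher and 30 lower, or 3.49%, against 3.35% of all sites. Pooled over all reads, the receptor genes had a level of 36.7% in E3 and 36.0% in CT, and the mean over sites was 38.0% and 37.8%.

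Many called sites had few reads in CT. The median coverage of the 2008 receptor gene sites was 26 reads in E3 and 9 reads in CT, against 27 and 9 over all measured sites. At the 232 called ones it was 30 and 9 reads, against 31 and 11 over all called sites. Of the 232 called sites, 124 had fewer than 10 CT reads (53.4%, against 38.4% of all called sites), and 92 stood at exactly 0% or 100% in CT (39.7%, against 37.9%). At 10 called sites one library was at 0% and the other at 100%, with 5 fully methylated in E3 and 5 in CT. PCR copies of 1 DNA molecule were not marked, so intervals and p-values cover counting error alone, and neighbouring sites read by the same fragments are not independent of each other.

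**Figure D1:**
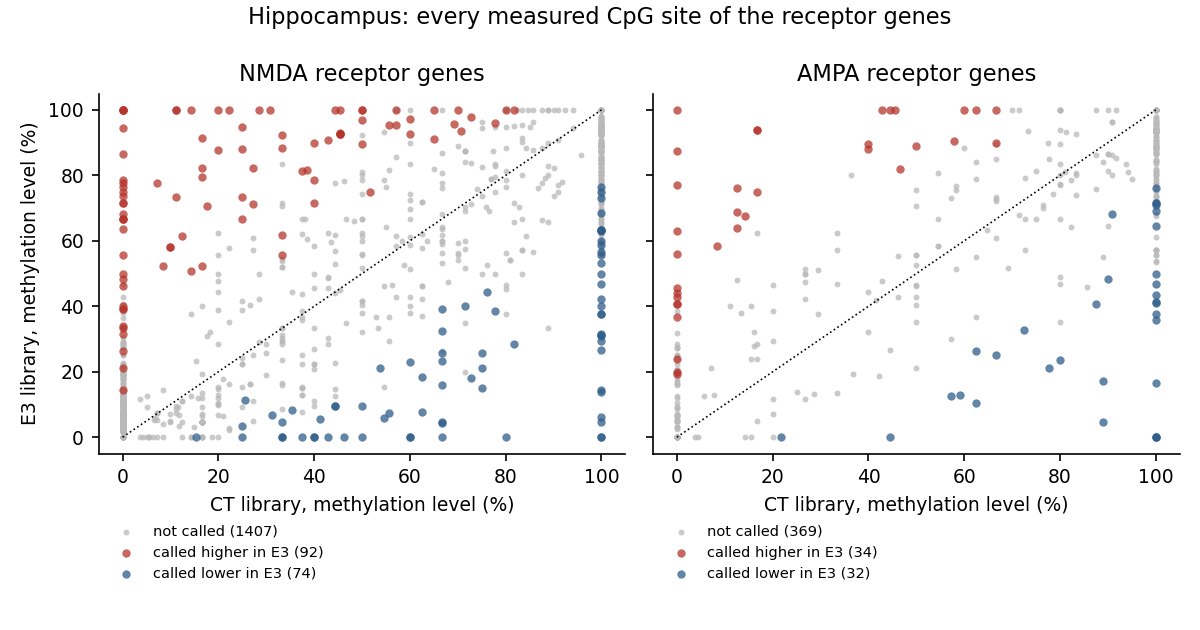
Methylation level (%) of every measured CpG site of the receptor genes in the hippocampus, with the CT library on the x axis and the E3 library on the y axis, for the NMDA genes (left) and the AMPA genes (right). Grey points are sites not called, red points those called higher and blue points those called lower in E3. Among the NMDA genes 92 sites were called higher and 74 lower, among the AMPA genes 34 and 32, and many called points lie on the left or right edge, where CT stood at 0% or 100%.

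Calls were most frequent at intermediate levels. Of the receptor gene sites, 883 had a level under 10% when the reads of both libraries were summed, and 11 of them were called (1.25%). Of the 330 sites between 30% and 70%, 109 were called (33.0%). The same bins over all sites gave 1.59% and 34.7%.

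The genes differed among themselves in the share of called sites. Gria3 had 13 sites called higher and 8 lower of 91 (23.1%), Gria1 had 11 and 13 of 105 (22.9%), and Grin1 had 12 and 15 of 157 (17.2%). Next came Grin2b with 36 higher and 15 lower of 368 (13.9%), Grin2a with 24 and 18 of 339 (12.4%) and Gria2 with 6 and 6 of 116 (10.3%). Grin2c had 7 and 9 of 196 (8.16%), Gria4 had 4 and 5 of 123 (7.32%), Grin3a had 7 and 5 of 173 (6.94%) and Grin2d had 6 and 12 of 340 (5.29%). Among the 7003 genes with at least 91 measured sites, the share of called sites had a median of 8.08%, with 18.5% at the 95th percentile. Gria3 lay above 98.6% and Gria1 above 98.5% of those genes, and Grin1 above 92.7%. Most sites of Gria1 (90) and Gria3 (66) were intronic, and intronic CpG sites of all genes were called at 14.1%. Chromosome X, where Gria3 lies, had a share of 15.5%. Restricted to sites with at least 10 reads in both libraries, the share of Grin1 was 10.1%, against 14.1% of all such sites. Those of Gria3 and Gria1 were 16.3% and 20%. With at least 20 reads the share of Grin1 was 7.69% and that of Gria1, from few sites, 25%, against 18.4%. Gria3 had only 8 sites left, of which 3 were called.

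**Figure D2:**
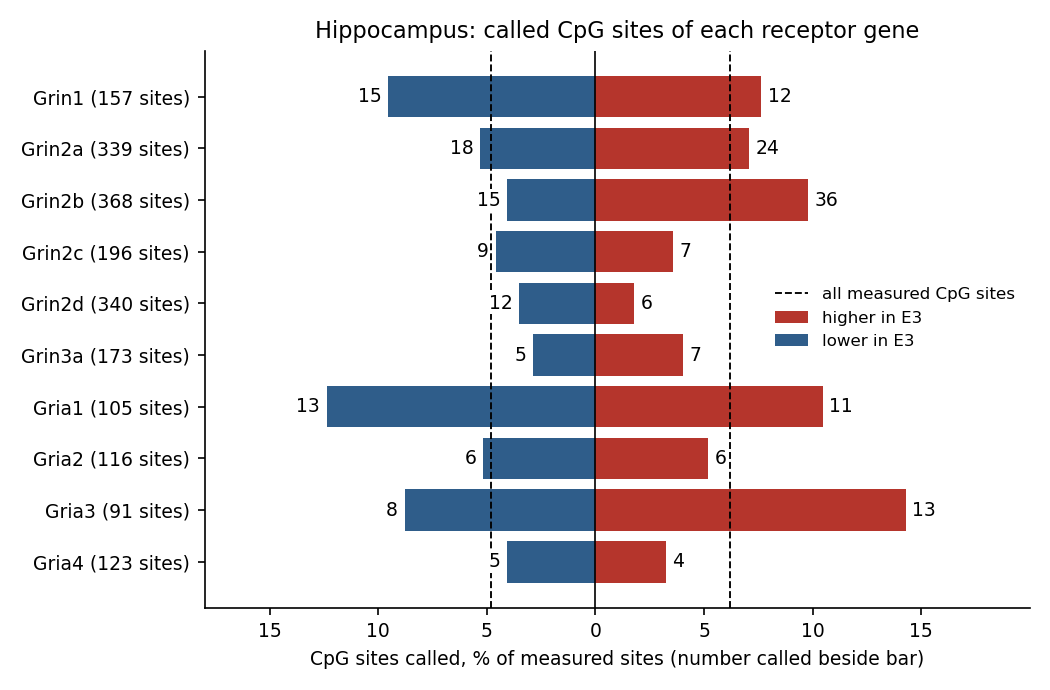
Share of the measured CpG sites of each receptor gene that was called in the hippocampus, in % of its measured sites, with sites higher in E3 to the right (red), sites lower in E3 to the left (blue) and the number of called sites beside each bar. Dashed lines mark the share over all measured CpG sites, 6.18% higher and 4.83% lower. The bars of Gria3 and Gria1 reach past the right line by the most, and those of Gria1 and Grin1 past the left one.

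Only part of each gene was read. In the reference, the genes and the 1000 bases before them hold 17858 CpGs, of which 1506 were measured on at least 1 strand (8.43%). The share ran from 3.24% of 2565 CpGs in Gria1 to 29.1% of 540 in Grin2c. Measured CpGs of Gria4 had a median distance of 0 bases to the nearest MspI or TaqαI recognition sequence (CCGG or TCGA), against 279 bases for all its CpGs, and those of Grin2b 15 bases against 196. Repeat-masked bases held 61.0% of the measured sites of Gria4 and 25.3% of those of Gria3, against 1.90% of those of Grin2b and 18.2% of all sites. Calls were about as frequent inside repeats as outside in the receptor genes, at 12.4% of 202 and 11.5% of 1806 sites, against 9.46% and 11.4% in the whole table.

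Each strand of a CpG is read on its own, which gives a second reading of the same CpG within a library. Of the 232 called sites, 107 were also measured on the other strand. There the other strand was called in the same direction at 20 (18.7%) and in the opposite direction at 2 (1.87%), against 15.5% and 8.08% over all called sites. The difference on the other strand had the same sign at 43 of the 107 (40.2%, against 43.9%), so most calls were not seen again there. This left 10 CpGs called alike on both strands, 4 higher and 6 lower in E3, in Grin1, Grin2a, Grin2c, Grin2d and Gria3. The 2 sites of opposite calls were the strands of 1 CpG in an intron of Gria1.

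At the gene starts, the promoters of Grin1, Grin2a, Grin2b, Grin2c, Grin3a and Gria4 were largely unmethylated in both libraries. A promoter was taken as the 1000 bases on each side of the RefSeq gene start, and reads were summed over its CpG sites. It was tested if it had at least 5 sites, and called where the levels were 10 or more points apart with an adjusted p under 0.05 over 20169 promoters. A fragment that covers several sites was counted at each of them. Promoter p-values and intervals thus rest on fewer molecules than summed reads and overstate the evidence. All 8 tested promoters had the higher pooled level in E3, as had 54.5% of all tested promoters, whereas that of Gria2, not tested, was lower in E3. Of the 8, 1 was called, against 9.67% of all promoters. Of the 289 single sites in these windows, 13 were called higher (4.50%) and 10 lower (3.46%), or 7.96% in all. Among the sites in promoters of any gene, 1.75% were called higher and 3.69% lower, or 5.45% in all.

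Grin1, which encodes the subunit that all NMDA receptors share, had a promoter level of 11.9% (95% Wilson interval 10.3 to 13.8) in E3 and 2.70% (1.61 to 4.48) in CT over 38 sites. The difference of 9.25 points had an adjusted p of 7.37e-10 by Fisher's exact test and missed the limit of 10 points. Many of the 38 sites had equal counts, such as 27 reads in E3 and 14 in CT. The same fragments may thus be counted many times in this p-value. With at least 10 reads per site the difference was 13.5 points over 24 sites and the promoter was called. Grin2c stood at 9.40% and 4.90% over 81 sites (Fisher's exact test, adjusted p = 4.10e-04), and Grin3a, whose subunit lowers the calcium flow of the receptor, at 3.75% and 1.18% over 50 sites (adjusted p = 3.27e-03). Gria3 stood at 27.4% and 20.2% over 24 sites (Fisher's exact test, adjusted p = 0.0389). Promoters of chromosome X, of which females silence 1 copy in each cell, had median levels of 33.9% in E3 and 40.7% in CT. Grin2a (6.67% and 4.64%), Grin2b (3.37% and 0.662%) and Gria4 (1.33% and 0%) had adjusted p-values of 0.156, 0.184 and 1 by Fisher's exact test.

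Grin2d had the called promoter, with 87.7% (83.3 to 91.0) in E3 and 68.1% (56.4 to 77.9) in CT over 5 sites and an adjusted p of 1.56e-03 by Fisher's exact test. The gene start used there is that of a predicted transcript, and the called sites lie within 1000 bases of the neighbouring gene Kdelr1. When the 1000 bases around every RefSeq transcript start of Grin2d were taken, its 143 sites stood at 9.81% in E3 and 10.2% in CT. The promoter of Gria2 had 4 measured sites, too few for the test, and went the other way, at 18.3% in E3 and 22.8% in CT. None of the 36 CpGs in the promoter of Gria1 was measured.

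**Figure D3:**
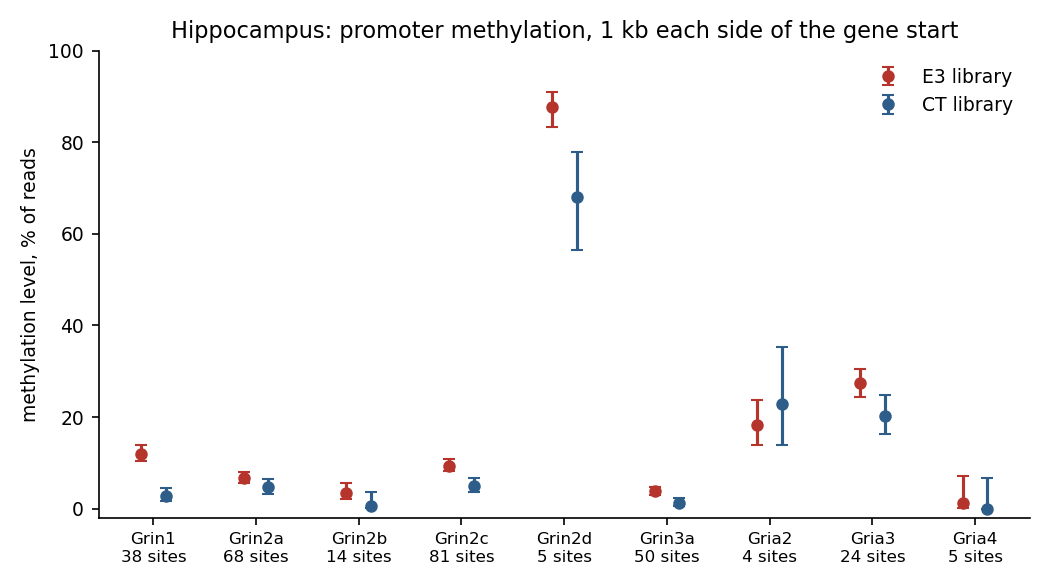
Methylation level of the promoters of the receptor genes in the hippocampus, in % of the reads summed over the CpG sites within 1000 bases of the gene start, for the E3 library (red) and the CT library (blue), with 95% Wilson intervals that cover counting error alone. The number of sites stands under each gene. Grin2d is the one promoter with a high level, at 87.7% and 68.1%. The intervals of the 2 libraries do not overlap for Grin1, at 11.9% and 2.70%, and likewise for Grin2c, Grin2d and Grin3a.

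Within the Grin1 promoter, 3 of the 38 sites were called, all higher in E3 (7.89%, against 1.75% called higher in promoters of any gene). A pair of CpGs at -570 and -583 from the gene start carried the largest differences and is shown with the called CpGs in capitals (plus strand, chr2:25319737-25319791):
Grin1 distal upstream: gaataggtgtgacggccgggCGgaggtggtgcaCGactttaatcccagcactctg
The first CpG was methylated in 100% of 28 reads in E3 and 45.5% of 11 reads in CT, a difference of 54.5 points (Fisher's exact p = 1.42e-04). The second was at 82.1% of 28 and 27.3% of 11 reads. Nearer the start, at -74, the plus strand was at 26.4% of 53 reads in E3 and 0% of 28 reads in CT, whereas the minus strand of that CpG was at 0% in both libraries, from 26 and 6 reads.

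In its introns and coding exons, Grin1 (chr2:25291177-25319187, minus strand) held 9 sites called higher and 15 called lower in E3. Called were 25.4% of its 63 intronic and 27.6% of its 29 coding exon sites. Over all genes it was 14.1% of intronic and 12.0% of exonic sites. The strongest site of Grin1 was the minus strand of an intronic CpG at chr2:25313383, methylated in 14% (6.56 to 27.3) of 43 reads in E3 and 100% (67.6 to 100) of 8 reads in CT, a difference of -86.0 points (Fisher's exact p = 4.72e-06). It belonged to a run of 6 called sites, all lower, across the border of an intron and a coding exon. Runs were defined as at least 3 called sites of 1 direction with gaps of at most 100 bases and no called site of the other direction between them. The called CpGs of this run are in capitals (plus strand, chr2:25313298-25313463):
Grin1 run of lower sites: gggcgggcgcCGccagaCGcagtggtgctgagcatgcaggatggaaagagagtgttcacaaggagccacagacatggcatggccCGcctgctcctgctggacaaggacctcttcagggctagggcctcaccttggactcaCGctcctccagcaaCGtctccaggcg
On average the 6 called sites stood at 36.9% in E3 and 100% in CT. Each was read by 16 to 43 E3 reads and 5 to 8 CT reads. The plus strand gave another picture, with a mean over 4 sites of 20.6% in E3 and 25% in CT, and 1 CpG of the run was called lower on both strands. Sites called higher bordered the run within the printed stretch. The minus strand at chr2:25313306 had 50% of 30 reads in E3 and 0% of 8 in CT. The plus strand at chr2:25313462 had 75% of 16 and 0% of 5 reads. A further intronic run at chr2:25311303-25311327 had 4 called sites at a mean of 22.8% in E3 and 61.1% in CT, and here both strands were lower in E3, at 18.7% against 50% on the plus and 32.6% against 45.8% on the minus strand.

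Grin2a (chr16:9567901-9996083, minus strand) encodes the GluN2A subunit that prevails at adult synapses. Outside the promoter its called sites were spread over introns, with 16 higher and 12 lower of 158 intronic sites. That was 10.1% and 7.59%, against 8.45% and 5.68% over the intronic sites of all genes. The pooled intron level of Grin2a was 52.7% in E3 and 53.6% in CT. The strongest site that was higher lay in a noncoding exon, on the minus strand at chr16:9625828, with 77.8% (61.9 to 88.3) of 36 reads in E3 and 0% (0 to 32.4) of 8 reads in CT (Fisher's exact p = 7.26e-05). It was one of a run of 3 such sites on the minus strand at a mean of 70.4% and 0%, while the plus strand of that run stood at 60.0% in E3 and 100% in CT and was not called. The strongest lower site was in a coding exon at chr16:9992472, with 4.35% of 46 reads in E3 and 66.7% of 9 reads in CT (Fisher's exact p = 7.28e-05).

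A pair of further runs in Grin2a lay in introns. At chr16:9716207-9716330, 3 minus strand sites averaged 61.4% of 44 reads in E3 and 13.9% of 12 reads in CT. At chr16:9753230-9753312 the direction was the reverse, with 3 called sites at a mean of 14.7% in E3 and 70.8% in CT, and all 5 measured sites of that stretch were lower in E3. This run includes the Grin2a site of the frontal cortex described further on, and its called CpGs are in capitals (plus strand, chr16:9753220-9753322):
Grin2a run of lower sites: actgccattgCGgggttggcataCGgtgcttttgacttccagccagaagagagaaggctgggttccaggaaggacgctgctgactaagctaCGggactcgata
Both strands were called alike at 2 other intronic CpGs of Grin2a. At chr16:9662988 the plus strand was at 73.3% of 30 reads in E3 and 25% of 8 reads in CT, and the minus strand at 78.6% of 56 and 40% of 20 reads. At chr16:9670685 the levels were 25.8% of 62 and 75% of 8 reads on the plus strand and 7.41% of 54 and 55.6% of 9 reads on the minus strand.

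Grin2b (chr6:135713221-136173615, minus strand), which encodes the GluN2B subunit of early postnatal and extrasynaptic receptors, had the most called sites of the 10 genes, 36 higher and 15 lower in E3. After adjustment, 18 of its sites were called higher and 2 lower, or 5.43% of its sites. Over all sites the share was 3.35%, with 2.04% higher and 1.31% lower. Of these 18 sites, 7 formed 1 minus strand run in a coding exon, described below. In coding exons, 14 of 79 sites, those 7 among them, were called higher and 2 lower, against 6.70% higher and 5.27% lower over the exonic sites of all genes. The pooled level of those exons was 91.2% (89.7 to 92.4) in E3 and 79.3% (76.6 to 81.7) in CT. The introns of Grin2b stood at 49.6% in E3 and 48.4% in CT, with 19 sites called higher and 13 lower of 236. These shares of 8.05% and 5.51% were near the 8.45% and 5.68% over the intronic sites of all genes.

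The longest run of all receptor genes lay in a coding exon of Grin2b. It held 7 sites called higher on the minus strand, shown in capitals (plus strand, chr6:136043983-136044113):
Grin2b run of higher sites: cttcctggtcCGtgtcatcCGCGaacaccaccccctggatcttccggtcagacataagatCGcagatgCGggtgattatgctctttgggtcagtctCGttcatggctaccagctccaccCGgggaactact
The first 3 CpGs of the run each stood at 92.6% of 27 reads in E3 and 45.5% of 22 reads in CT. Of the next 4, each with 20 or 21 E3 reads and 9 CT reads, all were at 100% in E3, with 11.1%, 44.4%, 0% and 22.2% in CT. The largest difference was 100 points at chr6:136044080 (Fisher's exact p = 9.99e-08). All 8 minus strand sites of the stretch were higher in E3, at a mean of 96.4% against 33.6%. The plus strand did not follow, since its 3 sites averaged 92.3% in E3 and 100% in CT, and a plus strand site 36 bases past the run was called lower, with 31.6% of 19 reads in E3 and 100% of 9 reads in CT.

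Further runs of higher sites in Grin2b were found in a coding exon near the end of the gene and in an intron. In the coding exon, at chr6:135732311-135732412, 4 called sites averaged 90.2% in E3 and 56.3% in CT from 12 to 40 CT reads. Both strands were on average higher in E3 there, at 89.5% against 77.5% on the plus and 83.5% against 59.0% on the minus strand, and the deepest called sites, with 56 reads in E3 and 40 in CT each, were chr6:135732356 at 71.4% and 40% (Fisher's exact p = 3.14e-03) and chr6:135732405 at 100% and 70% (Fisher's exact p = 8.94e-06). The called site chr6:135732412 beside them had 28 reads in E3 and 20 in CT, and whether fragments were counted more than once was not tested. In the intron at chr6:135899412-135899465, 3 plus strand sites averaged 54.8% in E3 and 6.67% in CT. The smallest p of the gene belonged to a lone intronic site at chr6:136130128, with 100% of 38 reads in E3 and 11.1% of 9 reads in CT (Fisher's exact p = 2.86e-08). Among lower sites it was the intronic CpG at chr6:135907781, with 6% of 50 reads in E3 and 54.5% of 11 reads in CT (Fisher's exact p = 5.46e-04).

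**Figure D4:**
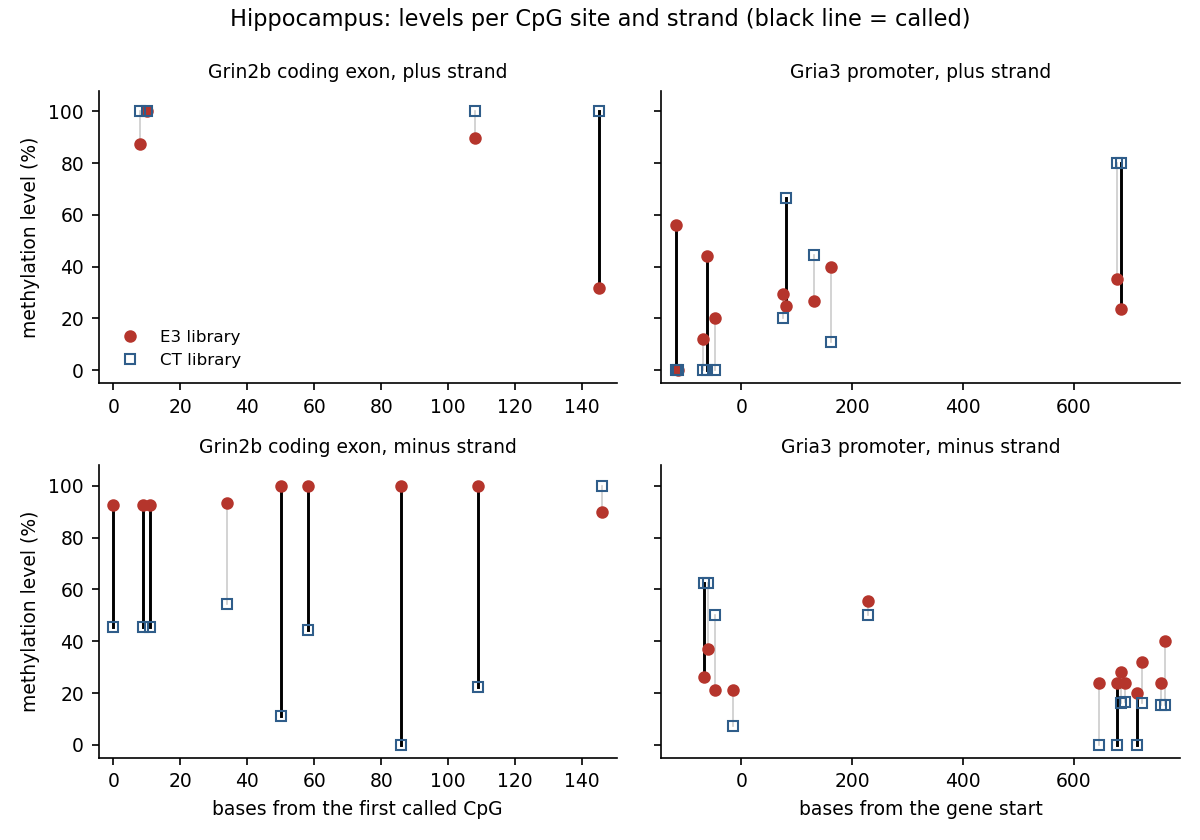
Methylation level (%) in the hippocampus of single CpG sites along the Grin2b coding exon run (left, by bases from its first called CpG) and the Gria3 promoter (right, by bases from the gene start), for the plus strand (top) and minus strand (bottom). Red circles are the E3 library, open blue squares the CT library, and a black line joins levels of a called site. On the minus strand of Grin2b the 7 called sites stand at 92.6% to 100% in E3 and at 0% to 45.5% in CT, while the plus strand is near 100% in both up to the last site. In Gria3 called sites point both ways.

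Grin2c (chr11:115249169-115267297, minus strand), whose GluN2C subunit is best known from cerebellar granule cells, had calls in both directions within short distances. In the promoter, sites after the gene start were called lower and sites before it higher. The 2 upstream sites lay on the minus strand at -130 and -174 from the start and had 50.7% and 40% of 75 reads in E3 and 14.3% and 0% of 14 reads in CT. Both lay in or within 1000 bases of the neighbouring gene Fdxr. The plus strand of these 2 CpGs, not called, stood at 41.7% and 38.9% of 72 reads in E3 and 25% of 8 reads in CT. Cut at 200 bases after the start, the promoter of Grin2c had 37 sites at 18.7% in E3 and 6.25% in CT and was called (Fisher's exact test, adjusted p = 1.89e-09), but with each site of the full promoter weighted equally the difference was -0.760 points. In a coding exon, a run of 3 sites was called lower, with the called CpGs in capitals (plus strand, chr11:115257987-115258068):
Grin2c run of lower sites: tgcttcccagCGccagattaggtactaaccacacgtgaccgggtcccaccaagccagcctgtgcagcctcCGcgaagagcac
The first of these CpGs was lower on both strands, with 4.76% of 21 reads in E3 and 66.7% of 6 reads in CT on the plus strand and 0% of 22 and 66.7% of 6 reads on the minus strand. The second stood at 4.55% (1.26 to 15.1) of 44 reads in E3 and 100% (67.6 to 100) of 8 reads in CT (Fisher's exact p = 5.98e-08). The strongest higher site was intronic, at chr11:115256559, with 100% of 31 reads in E3 and 50% of 8 reads in CT (Fisher's exact p = 8.51e-04).

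Grin2d (chr7:45831883-45871194, minus strand), the gene of the GluN2D subunit found in the embryo and in interneurons, was largely unmethylated, with a pooled level of 11.4% in E3 and 14.7% in CT. Most of its called sites, 12 of 18, were lower in E3. A run of 3 minus strand sites in a coding exon (chr7:45857529-45857572) had the deepest coverage of all runs, with 151 or 152 reads in E3 and 39 in CT, and averaged 10.8% in E3 and 31.6% in CT. Its site chr7:45857562 had 0% (0 to 2.46) of 152 reads in E3 and 15.4% (7.25 to 29.7) of 39 reads in CT (Fisher's exact p = 5.24e-05), while the plus strand of that CpG was at 0% in both. In a noncoding exon at chr7:45870034-45870059, 3 further sites averaged 4.63% in E3 and 40.9% in CT, and its last CpG was called on both strands, with 0% of 22 and 46.2% of 13 reads on the plus and 5.56% of 36 and 41.2% of 17 reads on the minus strand. The promoter sites at -834 and -835 from the start were both strands of 1 CpG, with 100% of 51 and 81.8% of 11 reads on the plus and 100% of 25 and 50% of 10 reads on the minus strand.

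Grin3a (chr4:49661611-49846023, minus strand) had 12 called sites and none in its promoter. The strongest ones were at chr4:49681844 in an intron that also holds the gene Ppp3r2, with 78.6% of 28 reads in E3 and 0% of 8 reads in CT (Fisher's exact p = 9.92e-05), and at chr4:49844944 in a coding exon, with 0% of 11 reads in E3 and 100% of 6 reads in CT (Fisher's exact p = 8.08e-05). At both CpGs the other strand did not follow, with 95.2% and 100% at the first and 0% in both libraries at the second. Introns of Grin3a stood at 86.8% in E3 and 90.7% in CT, and its coding exons at 4.19% and 5.0%.

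Of the AMPA receptor genes, Gria1 (chr11:57011571-57330244, plus strand; GluA1, the subunit that is inserted during long-term potentiation) had the site with the smallest p of all 10 genes. It was an intronic plus strand site at chr11:57021275, 9704 bases after the gene start, with 4.55% (1.26 to 15.1) of 44 reads in E3 and 88.9% (67.2 to 96.9) of 18 reads in CT, a difference of -84.3 points (Fisher's exact p = 7.87e-11, adjusted p = 1.60e-07). Its surroundings are shown with the CpG in capitals (plus strand, chr11:57021255-57021296):
Gria1 lower site: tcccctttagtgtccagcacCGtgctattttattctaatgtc
The plus strand site at chr11:57021224, also called lower, had 22 reads in E3 and 9 reads in CT. Whether fragments were counted more than once at chr11:57021275 was not tested. On the minus strand the CpG at chr11:57021275 stood at 32.1% of 56 reads in E3 and 40% of 10 reads in CT. The strongest higher site of Gria1, also intronic, was at chr11:57143886, with 77.1% of 70 reads in E3 and 0% of 9 reads in CT (Fisher's exact p = 9.93e-06), and there too the other strand was not called, at 64.5% of 31 and 90% of 10 reads. Over all 90 intronic sites of Gria1 the pooled level was 46.1% in E3 and 45.4% in CT.

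Gria2 (chr3:80681450-80804227, minus strand) encodes GluA2, the subunit whose edited form keeps AMPA receptors from passing calcium. A pair of intronic plus strand sites 3717 and 3754 bases after the gene start were each at 0% of 33 reads in E3 and 100% of 6 reads in CT (Fisher's exact p = 3.07e-07), and are shown in capitals (plus strand, chr3:80800463-80800521):
Gria2 pair of lower sites: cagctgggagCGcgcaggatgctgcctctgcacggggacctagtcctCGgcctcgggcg
The equal read counts leave it unknown whether the same fragments were read at both. The strongest higher site, at chr3:80791751, was the reverse, with 100% of 8 reads in E3 and 0% of 7 reads in CT (Fisher's exact p = 1.55e-04). Gria2 as a whole was little methylated, at 19.1% in E3 and 16.2% in CT.

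Gria3 (chrX:41400819-41678601, plus strand), the gene of GluA3, had the highest share of called sites, 7 of them among the 24 sites of its promoter, 4 higher and 3 lower in E3. That was 29.2% of its promoter sites, against 5.45% in promoters of any gene and 15.5% of all chromosome X sites. The stretch before the gene start is shown with the CpGs called higher in capitals (plus strand, chrX:41400691-41400818):
Gria3 upstream: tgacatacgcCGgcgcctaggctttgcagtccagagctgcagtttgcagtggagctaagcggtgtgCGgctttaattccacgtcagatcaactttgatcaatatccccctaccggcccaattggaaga
The first capital CpG, at -118 from the start, was at 56.0% of 25 reads in E3 and 0% of 8 reads in CT. The second, at -62, was at 44.0% (31.2 to 57.7) of 50 reads in E3 and 0% (0 to 19.4) of 16 reads in CT on the plus strand (Fisher's exact p = 5.98e-04), but at 36.8% of 38 and 62.5% of 16 reads on the minus strand. The minus strand site at -68 was called lower, with 26.3% of 38 reads in E3 and 62.5% of 16 reads in CT. Directions in this promoter thus differed between the strands and between CpGs a few bases apart.

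In the introns of Gria3, 3 CpGs were called alike on both strands. A pair of CpGs separated by 1 base, at chrX:41428179 and chrX:41428182, was called higher on all 4 strand readings (plus strand, chrX:41428169-41428193):
Gria3 intron pair: ggtcccagccCGaCGtgctagataa
The levels were 64.0% and 76.0% of 25 reads in E3 against 12.5% of 8 reads in CT on the plus strand, and 40.7% and 63.0% of 27 reads against 0% of 9 reads on the minus strand. The strongest lower site of Gria3 was likewise seen on both strands, at chrX:41456976, with 32.7% of 49 reads in E3 and 72.4% of 29 reads in CT on the plus strand (Fisher's exact p = 9.57e-04) and 12.5% of 40 and 57.1% of 7 reads on the minus strand.

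Gria4 (chr9:4417893-4796234, minus strand), the gene of GluA4, was the most methylated gene of the 10, at 86.2% in E3 and 88.1% in CT, and had 9 called sites, all intronic and none of them called after adjustment. The strongest were chr9:4466327, with 100% of 17 reads in E3 and 42.9% of 7 reads in CT (Fisher's exact p = 3.29e-03), and chr9:4471156, with 13.0% of 23 reads in E3 and 59.1% of 22 reads in CT (Fisher's exact p = 1.80e-03).

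In the frontal cortex, all 4 listed sites of the receptor genes were lower in E3, as were 63.7% of all listed sites, the other 36.3% being higher. They lay in Grin2a, Grin2b, Grin2d and Gria3, and the other 6 genes had no listed site, which says nothing of sites that were measured and not called. The CpG of each site is in capitals within 30 bases of the plus strand:
Grin2a (chr16:9753229-9753258): gcggggttggcataCGgtgcttttgacttc
Grin2b (chr6:135713716-135713745): ccaaaacaaaaaacCGaaacaaacaaacct
Grin2d (chr7:45833446-45833475): cgaaggcgaaggctCGaggtccaggtaggc
Gria3 (chrX:41400886-41400915): accatcttcgagggCGggggaaccctttgg
The Grin2a site, in an intron, had 12.0% in E3 and 50% in CT, a difference of -38.0 points. The Grin2b site, in the noncoding part of an exon near the end of the gene, had 0% and 30.8%. The Gria3 site, 81 bases after the gene start, had 6.56% and 25.4%, and the Grin2d site, in a coding exon within a CpG island, had 0% and 18.4%.

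Of these 4 CpGs, 3 were measured in the hippocampus, and 2 of them were called lower there as well. The Grin2a CpG had 15.2% (8.44 to 25.7) of 66 reads in E3 and 75% (40.9 to 92.9) of 8 reads in CT in the hippocampus (Fisher's exact p = 9.23e-04). The Gria3 CpG had 25% (12.7 to 43.4) of 28 reads and 66.7% (35.4 to 87.9) of 9 reads (Fisher's exact p = 0.0425). Both had fewer than 10 reads in CT. At the Grin2b CpG the direction was the other, with 85.7% of 14 reads in E3 and 57.1% of 7 reads in CT, but the site was not called (Fisher's exact p = 0.280). The Grin2d CpG itself was not covered, but all 11 CpG sites measured within 100 bases of it were lower in E3 in the hippocampus. One of them was called, with 4.55% of 44 reads in E3 and 33.3% of 24 reads in CT, and most of the others stood at 4.55% and 16.7%. All 11 lay on the plus strand, with 22, 43 or 44 reads in E3 and 12 or 24 in CT. Whether the same fragments were read at them is unknown, so they are not 11 separate readings. Over the whole frontal cortex table, 6651 sites were measured in the hippocampus and 29.0% of them were called there, 49.6% of the called ones in the same direction.

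**Figure D5:**
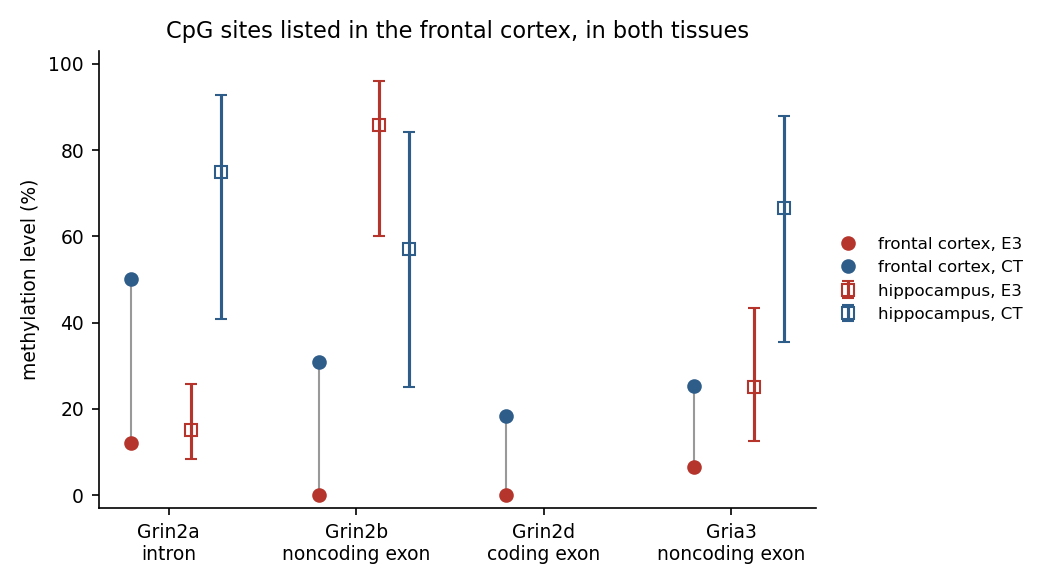
Methylation level (%) of the 4 receptor gene CpGs listed in the frontal cortex (filled circles, depth unknown) and of the same CpGs in the hippocampus (open squares with 95% Wilson intervals), for E3 (red) and CT (blue). All 4 are lower in E3 in the frontal cortex, Grin2a and Gria3 also in the hippocampus, and the Grin2d CpG had no hippocampus value.

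The other proteins of these receptors were examined through a list of 27 genes, namely the NMDA subunit gene Grin3b, 12 auxiliary subunits of AMPA receptors (the TARP genes Cacng2, Cacng3, Cacng4, Cacng5, Cacng7 and Cacng8, the cornichons Cnih2 and Cnih3, and Shisa6, Shisa7, Shisa9 and Gsg1l) and 14 scaffold, trafficking and signalling partners such as Dlg4, which encodes PSD-95. Of their 4823 CpG sites, 298 were called higher and 238 lower in E3 (11.1%, against 11.0% of all sites). None of their 20 tested promoters was called, against 9.67% of all promoters. Their differences ran from -4.03 to 4.91 points, with 7 adjusted p-values under 0.05 by Fisher's exact test. The share of such p-values over all promoters was not counted. The largest shares of called sites among those with at least 20 sites were those of Cacng5, with 8 of 33 sites called higher and none lower (24.2%), Dlg3, with 12 higher and 2 lower of 81 (17.3%), and Cacng2, the gene of stargazin, with 11 higher and 17 lower of 165 (17.0%). Cacng5 stood at 76.2% in E3 and 55.2% in CT over all its reads.

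In the frontal cortex table, 12 of the 27 partner genes had 21 listed sites, 4 higher and 17 lower in E3, against 36.3% higher and 63.7% lower over all listed sites. Of the 14 that were measured in the hippocampus, 3 were called there with both strands of a CpG summed, 1 in the same direction, against 29.0% called and 49.6% of these in the same direction over the whole table. That one, at chr11:5972377 in a coding exon of Camk2b, a subunit gene of the kinase that phosphorylates GluA1 and binds GluN2B, stood at 83.8% in E3 and 43.4% in CT in the frontal cortex and, with strands summed, at 84.8% of 46 and 52.2% of 23 reads in the hippocampus. Its plus strand alone stood at 100% of 21 and 55.6% of 9 reads. The Grip1 site chr10:120062786 and the Cacng8 site chr7:3401065 were called against the frontal cortex direction. Grip1 had 0% in E3 and 48.9% in CT in the frontal cortex, but 61.8% of 68 and 11.8% of 34 reads in the hippocampus. Cacng8 had 32.3% and 7.14%, but 14.3% of 7 and 100% of 7 reads. The Dlg2 site chr7:92180744, at 20.7% and 45.2% in the frontal cortex, was called higher on the plus strand alone, at 35.9% of 39 and 0% of 12 reads. With strands summed it was not called, at 39.5% of 119 and 35.7% of 28 reads.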

How the data were processed

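DNA methylation was measured in the frontal cortex and hippocampus of female CD-1 offspring after prenatal E3 or DMSO, with 1 library per tissue and condition. The authors trimmed reads with TrimGalore, checked them with FastQC, aligned them to mm10 with Bismark and extracted CpG calls with MethylDackel. For the hippocampus, the authors deposited a methylation fraction and a total read count for each C of a CpG. For the frontal cortex, the deposited table gives methylation as a fraction at called sites alone, and its columns of differences and p-values were not used.

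Methylated reads were rebuilt as fraction times read count, rounded to whole reads. Sites needed at least 5 reads in both libraries, which left 74553455 reads in E3 and 27331546 in CT, summed over sites (mean coverage 33.5 and 12.3). Sites and promoters were tested with 2-sided Fisher's exact tests in Python 3.11.15 (numpy 2.4.6, pandas 2.3.3, numba 0.67.0), with Benjamini-Hochberg adjustment over all sites or all promoters, and the test was checked on simulated reads. Intervals are 95% Wilson intervals. Positions are 1-based in mm10, and genes, repeats and sequences are those of RefSeq GRCm38.p6, read with pysam 0.24.0. Figures were drawn with matplotlib 3.10.9.

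The genes, the partner list and the tests were chosen with earlier results of these data known. The text names every receptor gene, its called site with the smallest p in each direction, every frontal cortex site, the runs of called sites (all 12, since the rule of naming the 10 longest left ties of 3 sites), and the 3 partner genes with the largest called share among those with at least 20 sites. Called promoter sites, CpGs called on both strands and the named frontal cortex sites of partner genes were added after their values were seen. As alternatives, sites needed 10 or 20 reads, differences 25 points, p-values were adjusted, strands were summed, and promoter windows and run gaps were varied.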

Additional observations from a re-analysis of the deposited data

How the results depend on the processing

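No paired analysis was possible because each tissue and condition had 1 library, and for the same reason no replicate could be left out. With at least 10 reads in both libraries, 60 receptor gene sites were called higher and 45 lower in E3 (126 and 106 at 5 reads), or 11.8% of 887 sites against 14.1% of all such sites, and with at least 20 reads 19 and 12, or 15.8% of 196 against 18.4%. With adjusted p-values the counts were 40 and 30. The partner genes had 179 higher and 141 lower at 10 reads, or 14.5% of 2204 sites against 14.1%. The call of a promoter depended on the window and the coverage: 2 of 6 tested were called at 10 reads (8.67% of all promoters), 2 of 3 at 20 reads (6.17%) and 2 of 4 with the window ending 200 bases after the start (9.09%), whereas 0 of 8 were called at 25 points (1.96%) and 0 of 9 over every RefSeq transcript start (10.3%), against 1 of 8 as reported (9.67%). The direction was reversed for Grin2c with sites weighted equally (-0.760 points) and for Grin2d over every transcript start (-0.423 points). The cause was not tested. At 10 reads, 5 runs remained in place of 12, and 0 of the frontal cortex sites were called in the hippocampus in place of 2. At 25 points, 2 of the 4 frontal cortex sites were left. Of 60 alternative values of the called share per gene, 41 lay within the 95% counting interval of the reported share and 19 outside it. Of 37 alternative promoter differences, 29 kept direction and call. Part of them could not change, because the 25 point limit alters no difference and some windows held the same sites. A CT coverage of 9 reads at the median limits single sites to large differences, and the depth in the frontal cortex is unknown.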
